A study of Mus musculus with 8 samples.

Results

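Sox2, Otx2 and Nkx6-1 are 3 genes of a table of 875 that differed between mouse embryonic fibroblasts (MEFs) expressing EZHIP and their controls. They were chosen by their levels. They are listed at 0 in every control and every K27M library, and they are expressed in the EZHIP and EED-null libraries. RNA sequencing of rRNA-depleted total RNA gave 8 libraries, 2 in each of 4 groups. All groups derive from MEFs of 1 mid-gestation embryo whose Eed alleles carry loxP sites around an internal group of exons, and the parental floxed cells are the control. EZHIP cells carry a lentivirus that expresses the human protein EZHIP stably from an EF1a promoter, and K27M cells carry one for histone H3.3 with lysine 27 replaced by methionine. EED-null cells received Cre recombinase from a hit-and-run lentivirus, and the line is a single selected clone, so the deletion cannot be told apart from properties of that clone. Growth was in DMEM with fetal bovine serum. No source used here ties the replicates of a group to separate cultures, so their spread may be technical.

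Polycomb repressive complex 2 (PRC2) places methyl groups on lysine 27 of histone H3, and it keeps many developmental regulators silent in cell types that do not use them. EED is a core subunit that PRC2 needs for its activity, while EZHIP and the K27M histone are both inhibitors of the complex. Sox2 encodes a high-mobility-group transcription factor of pluripotent cells and neural progenitors. Otx2 encodes a homeodomain factor of forebrain, midbrain and eye, and Nkx6-1 encodes a homeodomain factor of ventral neural tube progenitors and pancreatic beta cells. Fibroblasts do not normally express them, and genes of this kind are known targets of PRC2.

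The genes lie on 3 chromosomes. In the mm9 build, Sox2 (ENSMUSG00000074637.3) spans chr3:34548927-34551383 on the plus strand, with 2457 bases of exon. It lies inside the longer noncoding gene Sox2ot (ENSMUSG00000090828.2, chr3:34003360-34581541, same strand), whose annotated exons do not overlap it. Otx2 (ENSMUSG00000021848.9) spans chr14:49277354-49287319 on the minus strand, with 3397 exonic bases and 7 distinct annotated starts. Nkx6-1 (ENSMUSG00000035187.8) spans chr5:102087158-102094245 on the minus strand, with 3368 exonic bases and 1 annotated transcript. None neighbours another of the set, and the nearest gene of the table was 4.23 Mb away for Sox2 (Fat4), 0.397 Mb for Otx2 (Peli2) and 0.0999 Mb for Nkx6-1 (Cds1).

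PRC2 in mammals is known to gather at stretches rich in CG dinucleotides, so the sequences before the start sites are shown with each CG in capitals. They are the 250 bases before the most upstream annotated start, at chr3:34548677-34548926 (plus), chr14:49287320-49287569 (minus) and chr5:102094246-102094495 (minus), and before an inner start of Otx2, at chr14:49285197-49285446 (minus), each written 5′ to 3′ along the gene's strand.
Sox2: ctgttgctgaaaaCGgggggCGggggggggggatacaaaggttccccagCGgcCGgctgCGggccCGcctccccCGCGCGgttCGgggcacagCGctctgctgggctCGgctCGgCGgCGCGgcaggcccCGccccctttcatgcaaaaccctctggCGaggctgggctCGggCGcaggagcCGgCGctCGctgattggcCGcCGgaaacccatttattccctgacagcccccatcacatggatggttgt
Otx2, upstream start: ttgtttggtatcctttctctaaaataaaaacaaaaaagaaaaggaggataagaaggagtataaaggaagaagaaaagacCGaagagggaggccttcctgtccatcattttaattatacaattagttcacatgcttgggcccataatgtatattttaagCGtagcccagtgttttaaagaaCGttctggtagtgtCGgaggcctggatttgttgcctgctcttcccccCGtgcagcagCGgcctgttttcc
Otx2, inner start: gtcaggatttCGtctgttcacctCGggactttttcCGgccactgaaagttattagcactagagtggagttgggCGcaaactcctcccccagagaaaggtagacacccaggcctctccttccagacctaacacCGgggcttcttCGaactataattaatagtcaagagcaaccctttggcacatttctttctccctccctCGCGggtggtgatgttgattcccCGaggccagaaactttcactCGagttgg
Nkx6-1: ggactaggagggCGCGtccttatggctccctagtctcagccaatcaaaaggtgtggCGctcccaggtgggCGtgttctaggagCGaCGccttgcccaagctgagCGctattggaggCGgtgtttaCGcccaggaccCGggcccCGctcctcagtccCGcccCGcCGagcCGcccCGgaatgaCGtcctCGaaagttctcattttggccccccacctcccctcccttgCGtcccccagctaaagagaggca
The Sox2 sequence holds 25 CG and the Nkx6-1 sequence 19, against a median of 8 for the same window before 21993 protein-coding genes. As many or more were found in 11.96% and 23.1% of those genes. The upstream start of Otx2 differs from both, with 6 CG, a number reached by 59.6% of genes, and the inner start shown holds 10. That inner start has the most CG among those with no annotated Otx2 exon in the 250 bases. Over all 7 annotated starts of Otx2 the 250-base count lay between 4 and 16. In the 1000 bases centred on the start the counts were 85 for Sox2, 72 for Nkx6-1 and 24 for the upstream start of Otx2, against a median of 41 over the protein-coding genes. That median was 54 over 841 listed genes and 66 over the 17 patterning regulators described below. Over 15 of the 16 genes that share the silence in control and K27M, the 3 included, it was 69. Over the 7 starts of Otx2 the 1000-base count lay between 24 and 53. The table does not separate transcripts, so the start that the cells used is unknown, and high CG content is not shared by all 3 genes at their most upstream start.

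The values are estimated reads divided by a size factor for each library, and the lowest steps of the values gave back what 1 read is worth. Reads on the listed genes came to between 209390 and 424561 per library. A gene with at most 3 reads in each library of a group is called not detected here, and 3 reads are also the floor for lower bounds.

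Sox2 was at 0 in control replicates 1 and 2 and at 0 in K27M replicates 1 and 2. It was at 166 and 137 in the EZHIP libraries and at 245 and 270 in the EED-null libraries. Both expressing groups lie clear of the silent ones, and both EED-null libraries are above both EZHIP libraries. Behind the values stand 140 and 120 reads in EZHIP and 177 and 279 in EED-null.

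Otx2 was likewise at 0 in all 4 control and K27M libraries. Its values were 54.4 and 60.4 in EZHIP and 180 and 146 in EED-null. The EED-null libraries lie above the EZHIP libraries with no overlap, and they also spread more widely, with an SD of 24.0 against 4.22 (n = 2 each).

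Nkx6-1 was at 0 in the same 4 libraries. Its values were 42.6 and 37.6 in EZHIP and 169 and 163 in EED-null. It is the lowest of the 3 in EZHIP, while in EED-null its mean per kilobase is close to that of Otx2.

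**Figure D1:**
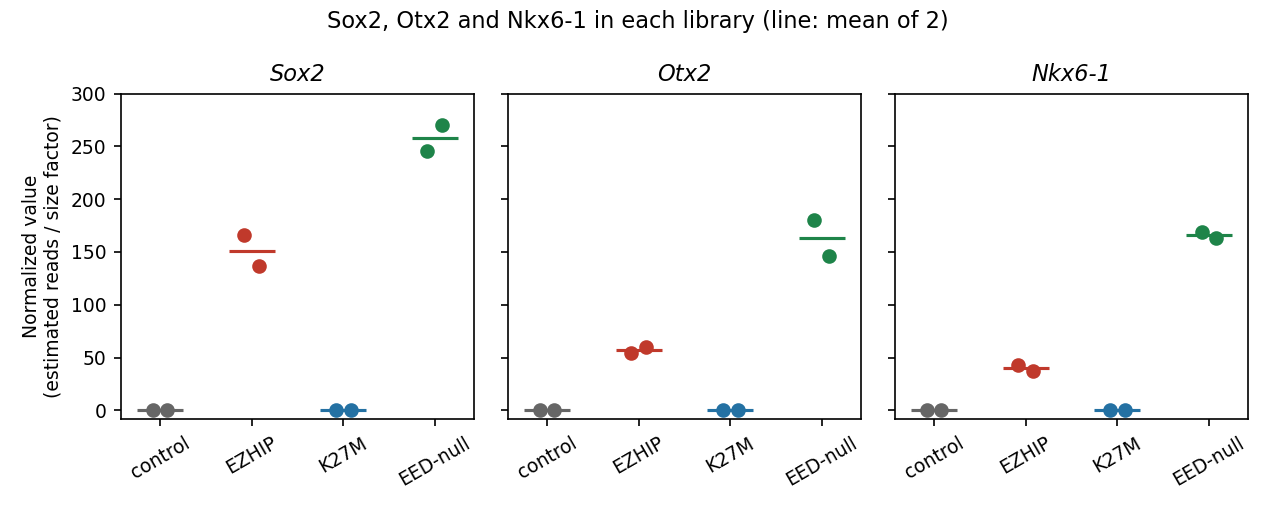
Normalized value (estimated reads divided by the library's size factor, vertical axis) of Sox2, Otx2 and Nkx6-1 in each of the 8 libraries by group, with points for libraries and lines for the mean of 2. All control and K27M points lie at 0, and for each gene both EED-null points lie above both EZHIP points, from 146 to 270 against 37.6 to 166.

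A value of 0 has a limit set by depth, and here it is a tight one. Control libraries together held 730851 reads on listed genes and K27M libraries 750739, and in neither pair did any fall on the 3 genes. At the mean level of EZHIP cells, the K27M libraries would have held 163 and 173 reads of Sox2, 61.9 and 65.7 of Otx2 and 43.2 and 45.9 of Nkx6-1. With 3 reads per library as floor, Sox2 was at least 56.0-fold higher in EZHIP than in K27M cells, Otx2 at least 21.3-fold and Nkx6-1 at least 14.8-fold. For EED-null against K27M cells the bounds were at least 95.4-fold higher for Sox2, 60.4-fold for Otx2 and 61.4-fold for Nkx6-1. The bounds against control are similar, from 15.2-fold (Nkx6-1 in EZHIP) to 97.4-fold (Sox2 in EED-null). These contrasts chose the genes, so they carry no test. Reads cover counting error only, and in bulk RNA fewer expressing cells and less RNA per cell cannot be told apart.

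Genes were compared per kilobase of exon, with all annotated transcripts merged (8 for Otx2, 1 for Nkx6-1). The transcripts in use are unknown, so levels between genes, and the place of Otx2 in particular, depend on that length. On this scale Sox2 stood highest. In EZHIP cells it was at 61.6 ± 8.30 per kb (SD, n = 2), against 16.9 ± 1.24 for Otx2 and 11.9 ± 1.05 for Nkx6-1. In EED-null cells it was at 105 ± 7.15, with Otx2 at 48.1 ± 7.05 and Nkx6-1 at 49.3 ± 1.33, and these last values differed by less than their spread. The order Sox2, Otx2, Nkx6-1 in EZHIP was therefore Sox2 and then an unresolved pair in EED-null. The ratio of Sox2 to Nkx6-1 within a library, from which the size factor cancels, was 5.33 and 4.99 in EZHIP and 1.99 and 2.28 in EED-null. The ratio of Otx2 to Nkx6-1 was 1.27 and 1.59 in EZHIP and 1.06 and 0.891 in EED-null. Neither ratio's ranges overlap between the groups, although with 2 libraries a side the smallest exact two-sided permutation p is 0.333.

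The choice of genes required expression in both EZHIP and EED-null cells, not an order between them, so it did not fix the direction of this comparison. The values of both groups still took part in the choice, and the table was selected on EZHIP against control. The p-values below are therefore not those of genes chosen independently of these data. Nkx6-1 and Otx2 were higher in EED-null cells, while Sox2 rose by less than the 2-fold asked of a call. With limma on log2(value + 1), the difference was 2.02 for Nkx6-1 (SE 0.10, 95% interval 1.77 to 2.28, adjusted p = 4.45e-05), a ratio of means of 4.14. It was 1.49 for Otx2 (SE 0.13, interval 1.16 to 1.81, adjusted p = 2.12e-04), a ratio of 2.84. Sox2 differed by 0.77 (SE 0.13, interval 0.46 to 1.08, adjusted p = 0.00226), a ratio of 1.70, which passes the p threshold but not the fold. Among all 875 genes, 25.1% were called higher and 19.8% lower in EED-null than in EZHIP cells, and among the 495 genes with a higher mean in EZHIP than in control, 18.4% were called higher and 27.1% lower. Among the 101 genes not detected in control, to which the 3 belong, the shares were 32.7% and 23.8%. The libraries at 0 do not vary, so in the fit of all 8 libraries they lower a gene's estimated spread and its p-value. The same holds for other genes with groups at 0 below. Fitted on the 4 EZHIP and EED-null libraries alone, the standard errors were 0.12 for Nkx6-1, 0.16 for Otx2 and 0.15 for Sox2, and the adjusted p-values 0.00130, 0.00319 and 0.0136. With a spread that follows mean expression, the adjusted p was 0.0602 for Sox2 and stayed under the threshold for Nkx6-1 (5.56e-04) and Otx2 (0.00382).

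Of the table's genes, 101 were not detected in control. The table holds only genes that differed between EZHIP and control, so these 101 are there through their higher level in EZHIP, and genes that were silent in both are absent from it. K27M cells left 19 of them undetected (18.8%) and EED-null cells 8 (7.92%), with 3 undetected in both. The median K27M level over the 101 genes was 38.1% of the EZHIP level, and 32 genes were above the EZHIP level. By value in EZHIP, not scaled by length, Sox2 ranked 11 of the 101, Otx2 34 and Nkx6-1 48.

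**Figure D2:**
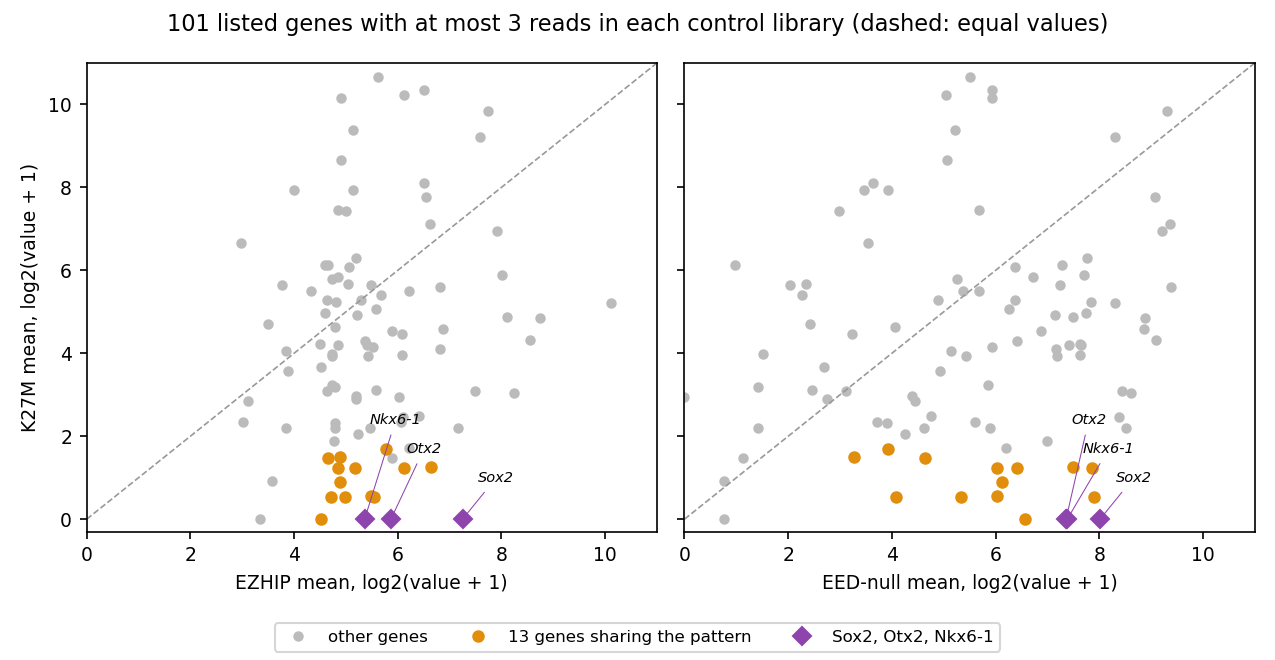
Mean K27M value (vertical) against mean EZHIP value (left panel) or mean EED-null value (right panel), all as log2(value + 1), for the 101 genes not detected in control libraries. Sox2, Otx2 and Nkx6-1 (diamonds) lie at 0 on the vertical axis, with 13 further genes (orange) near the bottom and most of the 101 above them.

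In all, 16 genes (1.83% of the table) were undetected in control and K27M libraries and detected in EZHIP and EED-null libraries. The 13 besides Sox2, Otx2 and Nkx6-1 are Syt13, Kcna6, Sall3, Foxl2, Sema5b, Prdm6, Sall1, Foxf2, Fam181b, Zic4, Tcfap2c, Cadps and 2200002D01Rik. Exact zeros in all 4 silent libraries were found for 4 genes only, the fourth being Foxl2, a forkhead factor of the ovary. Just outside the zeros, Sall3, Zic4 and Tcfap2c had at most 1 read in any control or K27M library. The next genes out, with at most 4 reads in one of those libraries, began with Lhx8 and Stk32b, so the boundary has no wide gap. Sall1, Sall3 and Zic4 encode zinc-finger factors, Foxf2 a forkhead factor, Tcfap2c an AP-2 factor, Syt13 a synaptotagmin and Kcna6 a voltage-gated potassium channel.

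Between EED-null and EZHIP cells the 13 went in both directions. Called higher in EED-null were 4 (Sall3, Foxl2, Syt13 and Sema5b), called lower were 3 (Fam181b, Tcfap2c and 2200002D01Rik), and 6 were not called, beside the 25.1% and 19.8% of all genes given above. Over the 101 genes not detected in control the shares were 32.7% and 23.8%. Those of the 13, 30.8% and 23.1%, were close to these, so the split is not particular to them. Sall3 was at 23.7 and 37.6 in EZHIP and at 225 and 248 in EED-null, a log2 difference of 2.94 (SE 0.34, limma adjusted p = 5.38e-04). Foxl2 was at 21.3 and 22.8 in EZHIP and at 105 and 82.4 in EED-null, a difference of 2.03 (SE 0.14, adjusted p = 9.64e-05), close to that of Nkx6-1. Syt13 differed by 1.77 and Sema5b, a semaphorin, by 1.59. In the opposite direction, Fam181b was at 55.6 and 51.3 in EZHIP and at 11.1 and 17.4 in EED-null, and it fell by 1.87 (SE 0.32, adjusted p = 0.00294). Sall1 differed by 0.92 and was not called. Its value rested on the EZHIP libraries, with 1.34 (adjusted p = 0.00897) without replicate 2 and 0.49 (adjusted p = 0.155) without replicate 1. Kcna6 (0.85), Prdm6 (0.56), Foxf2 (1.31) and Zic4 (0.64) were not called.

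**Figure D3:**
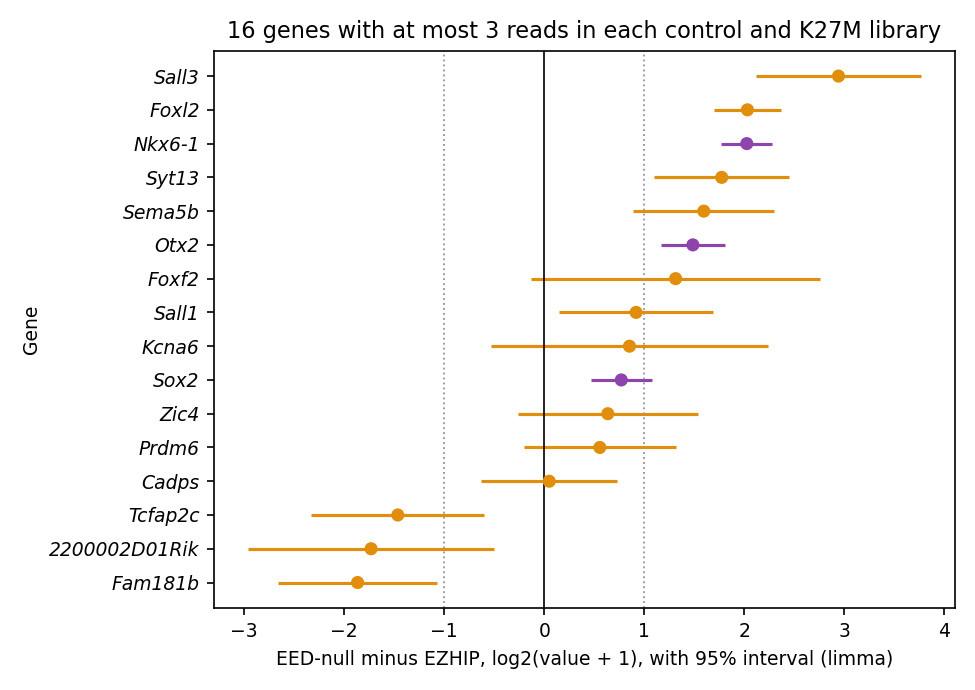
Difference between EED-null and EZHIP cells on log2(value + 1) (horizontal) with its 95% interval from limma for each of the 16 genes, with Sox2, Otx2 and Nkx6-1 in purple and dotted lines at a 2-fold change. Nkx6-1 at 2.02 lies in the upper part with Foxl2 and Sall3, Sox2 at 0.77 lies near the middle, and 3 genes lie below 0.

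The genes closest to each member were ranked by Pearson correlation of log2(value + 1) over the 8 libraries, which share their groups and depth. For Nkx6-1 they were Foxl2 (r = 0.999), Otx2 (0.998) and Syt13 (0.997). For Otx2 they were Nkx6-1 (0.998), Sox2 (0.995) and Foxl2 (0.995). For Sox2 they were Fhl1 (0.996), Otx2 (0.995) and Zic4 (0.991). Fhl1, which encodes a LIM-domain protein, was expressed in every library. Its values were 284 and 288 in control, 284 and 256 in K27M, 677 and 702 in EZHIP, and 750 and 729 in EED-null. It shares the order of groups but not the silence. Correlations over 0.95 were reached by 46 genes for Sox2, 41 for Otx2 and 33 for Nkx6-1, so with 4 groups a high value is common.

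Other regulators that pattern the neural tube and brain were looked up by name. Of 101 such genes listed for this purpose, 17 besides the 3 are in the table, and 16 of the 17 had a higher mean in EZHIP than in control, the contrast that selected the table. K27M cells were below EZHIP cells for 11 of them and above for 1, with 5 not called. Over all genes, 26.2% were called lower and 32.6% higher in K27M than in EZHIP, and over the 495 genes with a higher mean in EZHIP these shares were 40% and 17.8%. Over the 101 genes not detected in control, which hold 10 of the 17, the median K27M level was 38.1% of the EZHIP level. The median log2 difference was -2.29 over the 17, 0.13 over all genes and -0.67 over the 495. The largest were in Zic1, a zinc-finger factor of dorsal neural tube and cerebellum, at 643 and 644 in EZHIP and 13.9 and 8.7 in K27M (difference -5.74, SE 0.49, limma adjusted p = 9.51e-05), and in Six3, a homeobox factor of the anterior forebrain and eye, at 133 and 152 in EZHIP and 2.8 and 4.4 in K27M (-4.99, SE 0.26, adjusted p = 1.48e-05). The AP-2 gene Tcfap2b (-4.24), the homeobox genes Dmbx1 (-3.63), Msx1 (-3.18), Lhx8 (-2.89) and En2 (-2.29), the AP-2 gene Tcfap2a (-3.03) and the forkhead gene Foxa1 (-1.49) were also lower. Zic4, one of the 16 genes above, was at 30.8 and 19.4 in EZHIP and at 0 and 0.9 in K27M. Irx5 (-1.10, adjusted p = 0.0471) lost its call with any 1 of the EZHIP, K27M or EED-null libraries left out (adjusted p 0.0723 to 0.161) and at a pseudocount of 0.1.

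Of the 17 regulators, 10 were not detected in control cells. Of these 10, Zic4 was also undetected in K27M, beside 18.8% of all 101 such genes, and 7 had more than 3 reads in every K27M library. Sox2, Otx2 and Nkx6-1 were chosen for their zeros in K27M and are not among the 17, so they are not set against this count. Vax2, a homeobox gene of the ventral eye, was at 0 in control and at 76.9 and 77.8 in K27M against 36.7 and 34.2 in EZHIP (difference 1.11, SE 0.10, limma adjusted p = 1.04e-04), a call that rescaling the libraries ended (0.97, under 2-fold). Zic2 was at 122 and 123 in K27M against 228 and 254 in EZHIP, and Onecut2, a cut-homeobox gene, at 220 and 195 against 214 and 221. Neither was called, though Zic2 was without EZHIP replicate 1 (-1.04, adjusted p = 0.0353) and after rescaling (-1.11, adjusted p = 0.0137). Against control, 12 of the 17 were called higher in K27M and 16 in EED-null (all but Lmx1b). The shares of all genes called higher were 41.4% in K27M and 39.9% in EED-null, and over the 495 genes higher in EZHIP they were 62.4% and 68.3%. Rescaling the libraries to the listed genes moved the part of the K27M calls that were higher than control from 67.4% to 55.6%, and the patterning genes called higher stayed at 12 and 16.

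Between EED-null and EZHIP cells, 11 of the 17 regulators were called higher in EED-null and none lower, beside the 25.1% and 19.8% of all genes. Over the 101 genes not detected in control, which hold 10 of the 17, the shares were 32.7% and 23.8%. Eomes, a T-box factor, was at 42.6 and 27.4 in EZHIP and at 634 and 708 in EED-null (difference 4.25, SE 0.39, limma adjusted p = 2.31e-04). Vax2 (2.58), Dmbx1 (2.27), Lhx8 (2.26), En2 (1.997), Tcfap2a (1.98), Isl1 (1.79), Foxa1 (1.76), Six3 (1.36), Zic2 (1.30) and Lmx1b (1.14) were called too. Otx2 at 1.49 and Nkx6-1 at 2.02 lie within this range, and Sox2 at 0.77 lies nearer to the uncalled Zic1 (0.64), Tcfap2b (0.55) and Msx1 (0.46). The median was 1.36 over the 17, 0.15 over all genes, -0.18 over the 495 genes with a higher mean in EZHIP and 0.56 over the 101 not detected in control. Zic2 was at 228 and 254 in EZHIP and 604 and 587 in EED-null. Lmx1b was below control in both groups, at 43.8 and 49.0 in EZHIP and 112 and 94.9 in EED-null. In control it was at 142 and 146. The call of Lmx1b was lost without EZHIP replicate 1 (1.06, adjusted p = 0.0737) or EED-null replicate 1 (1.02, adjusted p = 0.0812).

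**Figure D4:**
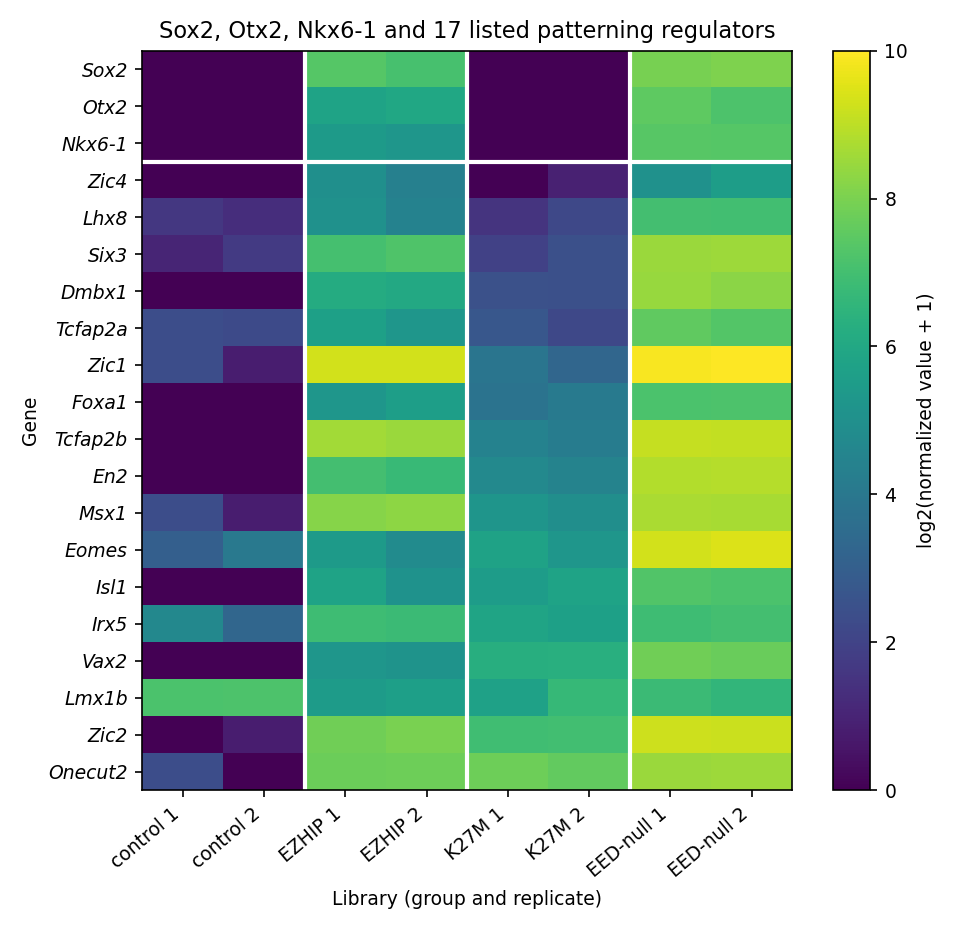
Log2(normalized value + 1) in each of the 8 libraries (columns, by group and replicate) for Sox2, Otx2 and Nkx6-1 (top) and 17 patterning regulators ordered by their mean in K27M (rows, lowest first), with dark blue for 0 and yellow for 10. Sox2, Otx2 and Nkx6-1 are dark in control and K27M columns, while the regulators brighten in K27M from Zic4 down to Onecut2, which was at 220 and 195 there.

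Of their own families few relatives are in the table. Sox12 was expressed in every library, from 156 in a control to 519 in a K27M library. It was at 329 and 349 in EZHIP and at 502 and 519 in K27M. Its difference between K27M and EZHIP was thus opposite in direction to that of Sox2, but under 2-fold and not called (0.59, SE 0.12, limma adjusted p = 0.00431). Sox9, a SOX factor of cartilage and neural stem cells, was at 95.9 and 100 in EZHIP and at 83.2 and 71.7 in EED-null, against 18.5 and 28.8 in control and 26.9 and 25.4 in K27M. It was thus lower in K27M than in EZHIP (-1.87, SE 0.21, limma adjusted p = 2.93e-04), in the direction of Sox2 but from a level above 0 in control. Nkx2-3, an NKX homeobox factor of gut and spleen, was at 0 in control as Nkx6-1 was, but K27M cells expressed it at 27.8 and 33.2 against 22.5 and 23.9 in EZHIP, and EED-null cells at 204 and 225. Its difference between EED-null and EZHIP was 3.15 (SE 0.12, adjusted p = 3.19e-05).

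Markers of cells that normally express Sox2, Otx2 or Nkx6-1 are mostly outside the table, which holds only genes that differed between EZHIP and control. Of 14 neural progenitor markers Prom1 and Sox9 are listed. Prom1 was at 22.5 and 28.5 in EZHIP and 56.8 and 56.2 in EED-null, against 0 and 0.7 in control and 3.7 and 13.1 in K27M, so it was highest in the groups that express the 3 genes. In K27M it was called higher than in control (2.63, limma adjusted p = 0.00406), and its difference between EED-null and EZHIP was not called (1.13, adjusted p = 0.102). Its part in the result was not tested. Of 16 neuron markers, Mtap2 was highest in control (1736 and 1797) and lowest in EED-null (183 and 187). The other, Stmn2, was highest in EED-null (73.5 and 39.7) and control (44.1 and 45.0), with 14.8 and 10.5 in K27M and 2.4 and 1.1 in EZHIP. Of 20 pluripotency genes Tcfcp2l1 is listed, highest in K27M (174 and 202). Of 16 islet genes Isl1 is listed, at 0 in both control libraries, 155 and 144 in EED-null, 54.4 and 33.1 in EZHIP and 44.5 and 54.2 in K27M. The fibroblast collagen gene Col3a1 was highest in control (17665 and 17245) and lowest in K27M (2206 and 2517), with 6797 and 6268 in EZHIP and 5733 and 5641 in EED-null. It was called lower than control in EED-null (-1.62, SE 0.11) and in K27M (-2.89, SE 0.11). Dcn, a matrix proteoglycan gene of fibroblasts, was lowest in EED-null (69.3 and 73.6) and highest in K27M (3192 and 3255). Fap, the third of 20 fibroblast genes in the table, was at 2.8 and 8.7 in EED-null and 8.3 and 13.7 in EZHIP, against at least 82.1 in every control and K27M library. The part of these fibroblast genes in the result was not tested. Of 12 PRC2 genes only Phf19 is listed, so the loss of Eed was not checked here, nor was the EZHIP transgene.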

How the data were processed

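RNA of MEFs was extracted with Trizol, depleted of rRNA and sequenced in 8 libraries, 2 for each of control, EZHIP, K27M and EED-null cells. Each sample received a spike-in of RNA from other cells, and whether the spike-in entered the size factors is not given in the sources used here. The authors estimated reads per gene with RSEM (1.2.4 in the submitters' processing notes) on an mm9 transcriptome. The deposited signal values are estimated reads divided by 1 size factor per library, not scaled by length. The authors kept 875 genes that EBSeq called different between EZHIP and control. Strand use in counting is not given in the sources used here, and between 72.2% and 82.5% of values per library were whole reads (within 0.001 read). The authors' EBSeq needs counts of all genes, and only selected genes are listed, so no count model was fitted.

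Sox2, Otx2 and Nkx6-1, the gene lists and the tests were chosen with earlier results of these data known, so contrasts that chose a gene are given without a test. Log2(value + 1) was fitted with limma (3.58.1, R 4.3.3) across the 8 libraries together, p-values were adjusted by Benjamini-Hochberg for 875 genes, and a call needed an adjusted p under 0.05 and a 2-fold difference. The fit was also run on simulated data in which only EED-null differed and no group was set to 0. That run does not cover genes silent in some groups. Named genes were the 3, 10 of the other genes sharing their pattern with the highest means in EZHIP and EED-null, the 3 most correlated genes for each, and up to 12 genes of each list by the size of the K27M against EZHIP difference. The remaining list and pattern genes were named after their values were seen. Symbols of lists were matched through RefSeq synonyms (Tcfap2a, Tcfap2b, Mtap2 and Tcfcp2l1 are older symbols). Positions and sequences came from the mm9 genome and the GENCODE vM1 annotation, read with Python 3.11.15, pandas 2.3.3 and numpy 2.4.6, and figures were drawn with matplotlib 3.10.9. Alternatives were other pseudocounts, a filter, each library left out, rescaling, a replicate block, only the 2 groups compared, a trend on expression and other limits of detection. Reads on listed genes, 209390 to 424561 per library, set the precision.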

Additional observations from a re-analysis of the deposited data

Results flagged for a closer look

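Several genes differed in level between groups, by limma's test of the difference itself (adjusted p under 0.05 and at least 2-fold). Between EED-null and EZHIP cells, on log2(value + 1), Otx2 differed by 1.49 and Nkx6-1 by 2.02. Of the genes sharing their silence in control and K27M, Sall3 differed by 2.94, Foxl2 by 2.03, Syt13 by 1.77, Sema5b by 1.59 and Fam181b by -1.87. The values of both groups took part in choosing Otx2, Nkx6-1 and these genes, so their calls are not independent results. For genes with groups at 0, such as Otx2, Nkx6-1 and Foxl2, those libraries also lower the p-value. Of the 12 patterning regulators with the largest differences between K27M and EZHIP, Vax2 differed by 2.58, Dmbx1 by 2.27, Lhx8 by 2.26, En2 by 1.997, Tcfap2a by 1.98, Foxa1 by 1.76 and Six3 by 1.36. Outside the 12, Eomes (4.25), Isl1 (1.79), Zic2 (1.30) and Lmx1b (1.14) were called too, Lmx1b from levels below control in both groups.

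Between K27M and EZHIP cells, Zic1 differed by -5.74, Six3 by -4.99, Tcfap2b by -4.24, Dmbx1 by -3.63, Msx1 by -3.18, Tcfap2a by -3.03, Lhx8 by -2.89, En2 by -2.29, Foxa1 by -1.49 and Irx5 by -1.10, while Vax2 differed by 1.11, a call that ended when the libraries were rescaled (0.97). The call of Irx5 ended with any 1 of the EZHIP, K27M or EED-null libraries left out. Groups of 2 libraries are too small for a test of single libraries that stand apart.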

How the results depend on the processing

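The number of genes sharing the silence of Sox2, Otx2 and Nkx6-1 in control and K27M depended on the limit of detection, from 7 genes at a limit of 1 read to 26 at 10 reads, beside 16 at 3 reads. With each library left out it lay between 16 and 20. Counts of called genes stayed within 1.5-fold under every alternative, from 363 to 396 for EED-null against EZHIP. Nkx6-1 and Otx2 kept their calls between EED-null and EZHIP in all 15 alternatives, and Sox2 stayed uncalled (differences 0.63 to 0.91). Replicate numbers do not pair the samples (correlations of deviations -0.09 to 0.11 over 6 pairs of groups), and with a replicate block 389 genes were called against 393, with Sox2, Otx2 and Nkx6-1 as before. Over 80 gene comparisons, 12 changed a call under some alternative and 0 reversed. Beyond those given above, leaving out K27M replicate 1 ended the call of Zic1 against control (adjusted p = 0.0577) and brought one for Six3 (1.07, adjusted p = 0.024), as did leaving out control replicate 2 for Six3 (1.15), while Lmx1b gained a call without K27M replicate 1 against EZHIP (1.14) and without K27M replicate 2 against control (-1.45). Foxf2 was called between EED-null and EZHIP at a pseudocount of 5 (1.19) or on those 2 groups alone (1.31). A pseudocount of 0.1 ended the call of Zic2 there (1.30), and one of 5 ended the call of Dmbx1 against control (0.93). Rescaling moved the median difference of all genes from 0.58 to 0.15 for K27M and from 0.40 to 0.01 for EED-null against control, and it ended the call of Vax2 between K27M and EZHIP (0.97). The 3 most correlated genes shared 1 with those given for Sox2 by Spearman's rho or a pseudocount of 5, and 1 for Otx2 at a pseudocount of 5. The causes were not tested. Depth limits low values, and genes outside the table were not analysed here.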
